A study of Mus musculus with 3 samples.

Results

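Radial glia-type cells of the E15.5 mouse embryo were described from 1 sagittal section in which transcripts were imaged in place. They were chosen by their own counts, as cells with at least 2 counts of Fabp7, at least 1 of Slc1a3, under 5 of Stmn2 and 0 of Scn7a, among cells whose panel genes summed to 10 counts or more. This rule took 786 of the 195915 kept cells of the section and of 203079 kept cells in all 3 sections of the study. The share at E15.5 was 0.401%, with an exact Clopper-Pearson 95% interval of 0.374% to 0.430%. The levels of Fabp7, Slc1a3, Stmn2 and Scn7a in these cells follow from the rule and are given as a description.

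The study used MERFISH, in which each RNA species is read as a barcode over successive rounds of fluorescence imaging, on the Vizgen MERSCOPE instrument. All 3 embryos were wild type, 1 section was cut from each, 2 of them at E9.5 and 1 at E15.5, and the labelled tissue was the whole embryo. The tables hold whole-number counts of 296 genes per segmented cell. The E15.5 section held 219525 cells and 21309070 gene counts, with a median of 84 counts per kept cell, and no cell identifier was shared between sections. With 1 section at this stage no test across embryos could be made. Each fold below carries an exact Poisson 95% interval, which covers counting error only and says nothing about how embryos vary.

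Radial glia are the stem cells of the developing central nervous system. Their cell bodies line the ventricles, they send a long process toward the outer surface, and they divide to renew themselves and to give rise to neurons, directly or through intermediate progenitors. Fabp7 encodes a brain fatty acid-binding protein and Slc1a3 a glutamate transporter, and both are classic genes of these cells and of later astrocytes. Notch signalling keeps radial glia from turning into neurons. Stmn2 is a microtubule regulator of young neurons, and Scn7a a sodium channel found in peripheral glia among other cells.

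The promoters of both genes that chose the cells, and of Mfsd2a, the gene with the highest fold in the comparison with all other cells, are shown so that the genes can be read beside their DNA. Each runs 5′ to 3′ along the strand of the gene and ends at the base before its start. They were taken from RefSeq on GRCm38.p6, at chr10:57784673-57784922 on the + strand for Fabp7, chr15:8710808-8711057 on the - strand for Slc1a3 and chr4:122961189-122961438 on the - strand for Mfsd2a. Capitals mark TGGGAA, the core of the sequence bound by Rbpj, the DNA-binding partner of Notch, on either strand.
Fabp7: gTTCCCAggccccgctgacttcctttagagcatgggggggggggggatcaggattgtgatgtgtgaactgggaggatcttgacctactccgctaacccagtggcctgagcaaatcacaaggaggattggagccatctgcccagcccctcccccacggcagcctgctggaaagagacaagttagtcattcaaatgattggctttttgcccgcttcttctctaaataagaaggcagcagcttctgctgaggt
Slc1a3: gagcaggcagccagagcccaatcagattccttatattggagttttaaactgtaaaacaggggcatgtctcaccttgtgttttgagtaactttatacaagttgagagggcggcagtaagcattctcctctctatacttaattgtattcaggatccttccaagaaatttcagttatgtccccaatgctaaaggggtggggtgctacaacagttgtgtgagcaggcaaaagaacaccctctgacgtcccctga
Mfsd2a: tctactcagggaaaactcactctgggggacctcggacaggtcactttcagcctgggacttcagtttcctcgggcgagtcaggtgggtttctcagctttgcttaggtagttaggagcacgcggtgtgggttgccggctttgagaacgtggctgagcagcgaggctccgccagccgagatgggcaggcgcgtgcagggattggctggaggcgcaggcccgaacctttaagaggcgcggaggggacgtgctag
The Fabp7 window held 1 match, on the opposite strand at its far end, and the other windows held 0. Of 32851 RefSeq windows of the same length, 21.6% held a match on either strand. The share was 20.3% among 217 panel genes with a window, and 23.1%, or 9 of 39, among those at least 2-fold higher in radial glia-type cells than in all other kept cells. The motif and these windows were chosen after the expression values had been seen, and a match is only a run of letters.

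Fabp7 stood at 11925 counts in the 786 cells, with a median of 10.5 per cell and a range of 2 to 94. Slc1a3 reached 1959 counts, with a median of 2 and a highest value of 17. Stmn2 was at 0 in 283 of the cells and at a median of 1. These cells held 20.6% of all Fabp7 counts and 16.7% of all Slc1a3 counts of kept cells in the section, so most of both transcripts lay in cells outside the rule. Tubb2b, a tubulin of young neurons and no part of the rule, had a median of 3 counts and was at 0 in 117 cells.

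The steps of the rule show which cells lay next to it. Cells inside a limit count toward the squares described here and cells outside do not, so part of any gap in place between them is fixed by the definition. At least 2 counts of Fabp7 were present in 7432 cells, 1789 of these also had Slc1a3, 803 were left once Stmn2 was held under 5, and the Scn7a step removed 17. Just inside the Fabp7 limit, 87 cells had 2 counts and 42.5% of them lay in the 100-micrometre squares where radial glia-type cells gathered (at least 5 per square). Just outside, 274 cells met every other limit with 1 count of Fabp7, and 13.1% of them lay there. At the Slc1a3 limit the shares were 67.1% of 386 cells with 1 count and 30.8% of 1876 cells with 0. At the Stmn2 limit they were 81.8% of 77 cells with 4 counts and 76.5% of 68 cells with 5, so cells on both sides of that limit lay in the same places.

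The same rule found 0 of 830 kept cells in E9.5 section 1, which allows a share of up to 0.361% by the limit of 3 counts and 0.443% by the exact interval, and 1 of 6334 in E9.5 section 2. The exact limit for E9.5 section 1 includes the E15.5 share, while the exact interval for E9.5 section 2, 0.0004% to 0.0879%, does not. Fabp7 over all kept cells stood at 1.46, 2.35 and 27.2 per 10,000 panel counts in E9.5 section 1, E9.5 section 2 and the E15.5 section. Slc1a3 stood at 5.98, 5.28 and 5.52 in the same order. Fabp7 was thus higher in the E15.5 section than in either E9.5 section, while Slc1a3 lay within a narrow range. Stage and imaging run cannot be told apart here.

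Radial glia-type cells were gathered in a small part of the section. Of its 3374 squares with kept cells, 137 held any of them, and 31 squares with at least 5 held 624 (79.4%) of them beside 1.53% of all kept cells. These squares formed 2 touching groups. The larger covered 29 squares, 833 by 1088 micrometres, with 601 radial glia-type cells, and the smaller had 2 squares and 23. Among the 20 nearest kept cells of a radial glia-type cell a median of 5 were also radial glia-type, and 143 of them (18.2%) had at least 10 neuron-type cells there while 233 (29.6%) had 0. Neuron-type cells are those with at least 5 counts of Stmn2 and at least 2 of Tubb2b, 28443 in all. The map shows a narrow band that starts inside a field dense in neuron-type cells and follows its border.

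**Figure D1:**
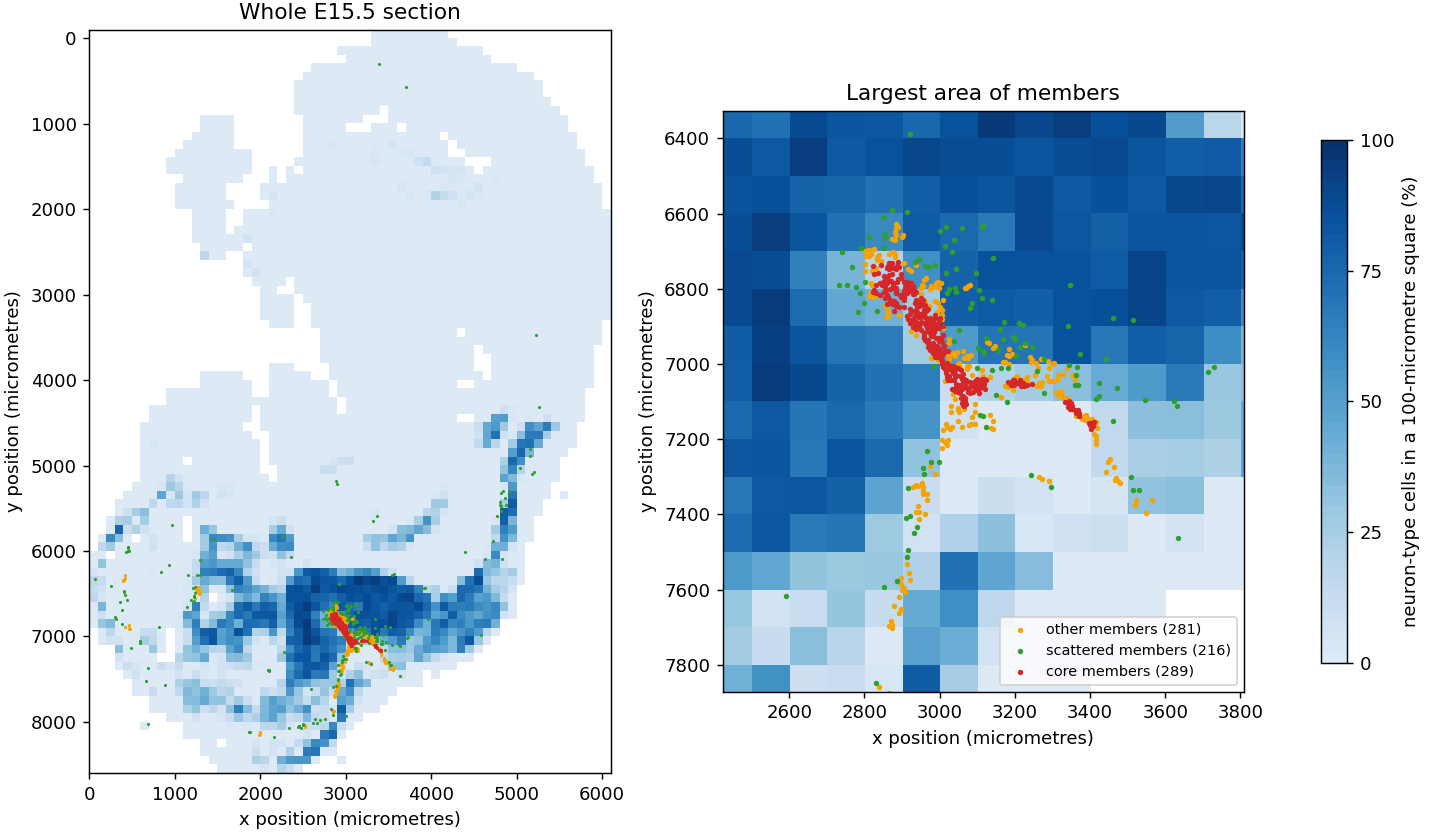
Positions of radial glia-type cells in the E15.5 section (left) and around the larger group of squares (right), in micrometres; each point is 1 cell, and blue shading gives the percent of kept cells in each 100-micrometre square that are neuron-type. The 289 core cells (red) form a band with gaps, and the 216 scattered cells (green) lie around it and across the rest of the section; numbers in brackets are for the whole section.

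The label was checked against the other genes of radial glia in the panel. Besides Fabp7 and Slc1a3 only Vim, an intermediate filament of progenitors, and Notch1, the Notch receptor, were in the panel, so the check rests on 2 genes. After thinning each cell to 50 counts, Vim was found in 86.5% (83.8% to 89.0%) of radial glia-type cells, 24.1% of neuron-type cells and 48.3% of all other kept cells. Notch1 was found in 76.6% (73.3% to 79.7%), 7.20% and 17.9% in the same order. Cells gated on the endothelial genes Pecam1 (at least 2 counts) and Cdh5 (at least 1) gave 76.8% for Vim and 37.9% for Notch1, and cells with at least 5 counts of Dcn, a gene of connective tissue, gave 61.0% and 16.1%. Both genes are thus shared with other cell types, and both were found most often in radial glia-type cells, taken as a whole, among these groups. Core cells, defined below, gave 95.1% for Vim and 89.1% for Notch1. Scattered cells, also defined below, gave 75.1% (68.3% to 81.2%) and 59.5%. The Vim share of scattered cells was thus near that of the endothelial gate. Median depth before thinning was 115.5 counts in radial glia-type cells, 117 in neuron-type cells, 83 in all other kept cells, 181 in the endothelial gate and 170 in the Dcn gate. The panel held no marker of oligodendrocyte precursors from the list used, and 1 gene each for intermediate progenitors (Btg2) and astrocytes (Sparcl1).

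Against all other kept cells, which lie mostly in other organs, Mfsd2a, Pdpn and Cxcr4 were among the highest folds in radial glia-type cells, and H19, Dkk2 and genes of smooth muscle the lowest. Levels are given as counts per 10,000 panel counts, leaving out Fabp7, Slc1a3, Stmn2, Scn7a and Tubb2b from the total, and a gene was counted at 2-fold or more with at least 50 counts over both groups. Of 292 genes, 48 were higher (16.4%) and 89 lower (30.5%), and the median over all of them was a fold of 0.797. The counts describe this section, with no test.

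Mfsd2a, a transporter of lysophospholipids best known from the blood-brain barrier, stood at 273 per 10,000 against 12.7, or 21.5-fold (20.6 to 22.4). Pdpn, podoplanin, a surface glycoprotein, stood at 110 against 7.58, or 14.6-fold higher on 957 counts. Both encode membrane proteins. Cxcr4, the receptor of the chemokine Cxcl12, was 11.4-fold higher (9.92 to 13.1) on 214 counts. Sfrp2, a secreted modulator of Wnt signals, was 7.02-fold higher, but 1.15-fold in cells outside the larger group of squares. Sparcl1, a matrix protein of astrocytes, was 5.63-fold higher, but is shared with endothelial-gated cells. It stood at 271 per 10,000 in radial glia-type cells and 133 in endothelial-gated cells, and was found in 36.7% and 41.9% of thinned cells. Unc5b, a netrin receptor, was 5.30-fold higher, and Timp3, an inhibitor of matrix proteases, 5.25-fold. Others among the 15 highest were Notch1 (8.68), Naaa (7.35), Lxn (7.20), Npl (6.05), Dnah8 (5.99) and Fam167b (5.17).

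The lowest folds included genes of smooth muscle and of connective tissue. H19, a maternally expressed long non-coding RNA, stood at 112 per 10,000 against 1478, or 13.2 times lower (12.4 to 14.0). Dkk2, a Wnt antagonist, was 23.7 times lower on 6 counts (10.9 to 64.5), and the smooth muscle genes Acta2 and Myh11 were 16.4 and 12.7 times lower. The others of the 10 lowest were Cd36 (10.5 times lower), Fibin (9.93), Lox (8.81), Hand2 (7.48), Dcn (7.45) and Cd248 (7.35). By list, 4 of 5 imprinted genes and 5 of 8 genes of mesenchyme and meninges were lower and 0 higher, beside 30.5% lower among all genes.

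**Figure D2:**
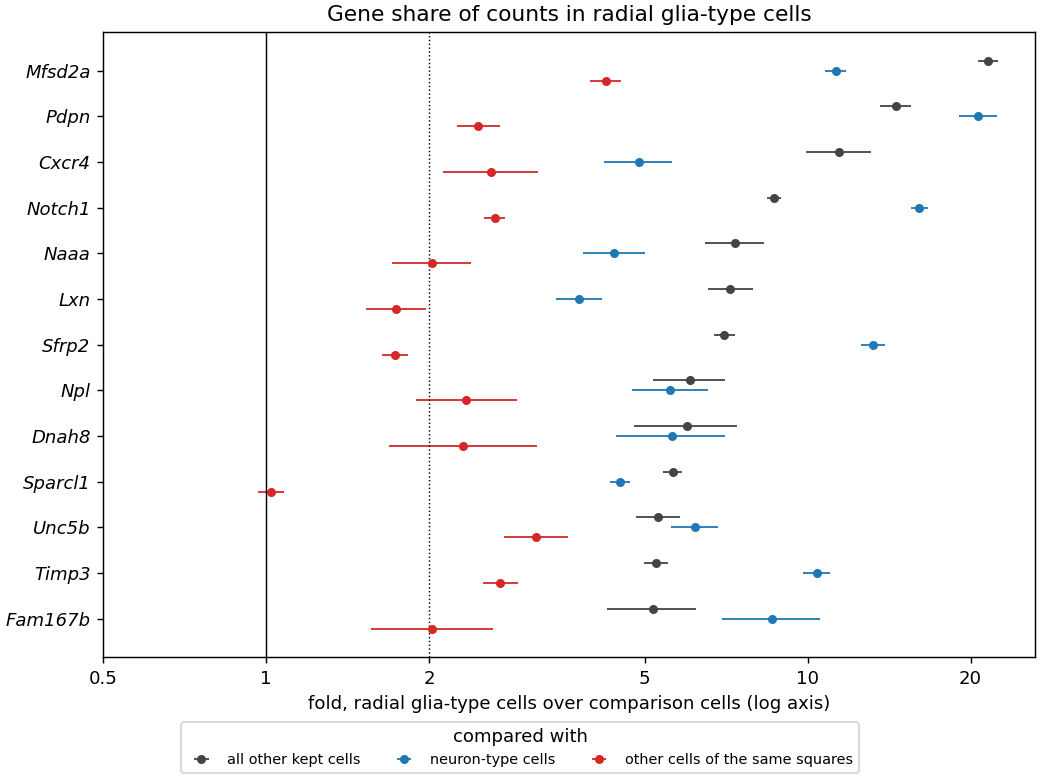
Fold of radial glia-type cells over 3 comparison groups (log axis) for 13 of the 15 genes with the highest fold against all other kept cells; bars are 95% Poisson intervals for counting error, and the dotted line marks 2-fold. For all 13 genes the fold is smallest against other cells of the same squares (red), and for Sparcl1 that fold is 1.02.

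The Notch pathway was followed from receptor to ligands. Notch1 stood at 492 per 10,000 in radial glia-type cells against 56.7 in all other kept cells and 30.6 in neuron-type cells. The ligand Jag1 stood at 62.7 against 20.4 and 20.6, and the ligand Dll4 at 6.92 against 3.03 and 2.67. The receptor Notch4, known from endothelium, stood at 3.34 against 5.03 and 3.49, and the target gene Heyl at 14.1 against 19.9 and 8.78. So 3 of the 5 panel genes of the pathway were at least 2-fold higher in both comparisons and 0 lower. Beside them, 16.4% of all genes were higher against all other kept cells and 30.2% against neuron-type cells. Of the 3, Dll4 rested on 60 counts, under the 62 of the highest blank code, a barcode given to no gene. In endothelial-gated cells Dll4 stood at 20.4, Jag1 at 29.7 and Notch1 at 106. Next to cells of the same squares only Notch1 passed 2-fold, at 533 against 202, or 2.64-fold (2.52 to 2.76), and Dll4 was 0.744 of its level there (0.536 to 1.01).

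Against neuron-type cells the order of the leading genes changed. Of 291 genes 88 were higher (30.2%) and 48 lower (16.5%), with a median fold of 1.15 over all of them. Pdpn led with 110 per 10,000 against 5.35, or 20.6-fold, followed by Notch1 with 16.1-fold, on 957 and 4272 counts in radial glia-type cells. Pdlim3, an actin-associated protein, was 13.6-fold higher, P4ha3, a subunit of collagen prolyl hydroxylase, 13.3-fold and Sfrp2 13.2-fold, or 2.17-fold outside the larger group of squares. Mfsd2a was 11.3-fold higher, with 273 against 24.2. Pdgfrb, a growth factor receptor best known from mural cells, was 10.6-fold higher, Timp3 10.4-fold and Pltp, a phospholipid transfer protein, 9.31-fold. Btg2, an antiproliferative gene known from progenitors about to form neurons, stood at 88.6 against 9.32, or 9.51-fold (8.77 to 10.3). Gadd45g, a growth arrest gene, stood at 21.3 against 3.78.

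Genes of neurons were lower, in a group of cells that the rule itself holds under 5 counts of Stmn2. Of 5 neuronal genes outside the rule 4 were lower, beside 16.5% of all genes. Reln, the secreted protein reelin, stood at 14.1 against 157 per 10,000, or 11.2 times lower (9.35 to 13.4). Rgs4, a regulator of G protein signals, was 10.1 times lower and Scn3a, a neuronal sodium channel, 7.30 times lower. Meis2, a transcription factor of many neurons, was 2.26 times lower, and Tmem108 stood at 21.3 against 19.3. Tubb2b, which chose the comparison cells, stood at 360 against 741. The lowest fold belonged to Hand2, a transcription factor of sympathetic neurons and the heart, at 17.9 times lower on 25 counts. Others among the 10 lowest were Hoxa5 (10.9 times lower), Casz1 (8.60), Tbx20 (7.31), Far2 (6.61) and Samd5 (5.77). Neuron-type cells came from the whole section, so their sites outside the area of radial glia-type cells enter this contrast.

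The nearest comparison was with the other 2371 kept cells of the 31 squares, of which 1091 were neuron-type. In these squares 2197 kept cells had at least 2 counts of Fabp7, and 624 of those were radial glia-type. Among the comparison cells 578 met every limit of the rule except that of Slc1a3. The contrast is thus in part with cells close to the rule. Of 250 genes counted, 19 were higher (7.6%) and 36 lower (14.4%). Mfsd2a had the highest fold, 315 per 10,000 against 74.4, or 4.24-fold (3.96 to 4.53). Unc5b was 3.15-fold higher, P4ha3 2.75-fold, Timp3 2.70-fold, Pdgfrb 2.63-fold and Cxcr4 2.60-fold. Vim stood at 718 against 322, or 2.23-fold (2.15 to 2.32). Adgrg6, Pdpn and Ednra filled the 10 highest at 2.57, 2.46 and 2.38-fold. These cells were deeper than their neighbours, with a median of 115.5 counts over all radial glia-type cells against 77, and the split depended on the scaling: by mean count per cell 50 genes were higher and 17 lower, and by counts per cell volume 49 and 17.

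Lower than in the same squares were Casz1, a zinc finger transcription factor, at 1.58 against 8.41 per 10,000, or 5.34 times (2.90 to 10.9), and Scn3a at 12.2 against 51.4, or 4.22 times. Nrp2, a semaphorin receptor, was 4.03 times lower and Reln 3.83 times. Cd55 was 4.44 times lower on 4 counts (1.63 to 16.9). Others were S100a10 (3.66), Tll1 (3.56), Cd200 (3.56) and Scgb3a1 (3.50). Several of these, among them Scn3a and Reln, are genes of neurons, and 36.4% of all kept cells in the squares were neuron-type. Sparcl1 was at 258 against 252, so its fold over the whole section was not seen within the squares. Several folds were smaller outside the larger group of squares. For the 185 cells outside it, Mfsd2a was 7.85-fold and Pdpn 5.16-fold higher than in all other kept cells, while Sfrp2 was at 1.15-fold and Unc5b at 0.844-fold (0.491 to 1.35). Of those cells, 23 lay in the smaller group of squares. Set against the other cells of both groups of squares pooled, most of which lay in the larger group, these 23 had Mfsd2a at 1.25-fold (0.809 to 1.86), Pdpn at 1.01-fold (0.547 to 1.69) and Notch1 at 2.40-fold (2.00 to 2.86).

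Endothelial markers were measured beside Mfsd2a. Of 5 such markers 0 were 2-fold higher than in all other kept cells and 2 lower, near the 16.4% and 30.5% of all genes, and against neuron-type cells 1 was higher and 0 lower. Their summed level was 62.2 per 10,000 in radial glia-type cells, 76.8 in all other kept cells, 51.8 in neuron-type cells and 643 in the endothelial gate. At least 1 count of these markers was present in 246 radial glia-type cells (31.3%). Mfsd2a stood at 284 per 10,000 in the 540 cells without one and at 254 in the 246 with one. In endothelial-gated cells of the whole section it stood at 13.2, and in the Dcn gate it was found in 2.93% of thinned cells, against 49.7% (45.9% to 53.5%) of radial glia-type cells. Mural markers summed to 75.8 per 10,000 against 96.2 in all other kept cells, and macrophage markers to 22.7 against 36.0. No marker of these 3 lists was at 0 in the radial glia-type cells.

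Counts of proliferation genes lay between those of neurons and of the embryo as a whole. After thinning to 50 counts, which left out 88 shallower cells, 33.8% (30.3% to 37.5%) of radial glia-type cells had at least 1 count over the 14 cell cycle genes of the panel. The share was 19.4% of 26375 neuron-type cells, 24.3% (22.2% to 26.5%) of other cells of the same squares and 54.0% of 135303 other kept cells. The 33.8% also covers the 162 radial glia-type cells outside those squares. Core cells, defined below and all inside them, stood at 28.1% (22.8% to 33.9%), an interval that overlaps that of their squares. Unthinned, it was 52.9% in radial glia-type cells and 38.3% in neuron-type cells. Against neuron-type cells 10 of 14 of these genes were higher and 0 lower, with a median fold of 2.35, beside 30.2% higher and a median of 1.15 over all genes. Cdk1, the kinase that drives mitosis, and Cenpf, a kinetochore protein, were each 5.07-fold higher, and Nusap1 and Top2a 3.50 and 2.93-fold. Against all other kept cells 0 were higher and 5 lower, a share lower near the 30.5% of all genes. Against other cells of the same squares 0 of 13 counted were higher and 0 lower. Their median fold there was 1.38, beside 7.6% higher and a median of 0.887 over all genes. A count of such a gene does not show that a cell was dividing.

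**Figure D3:**
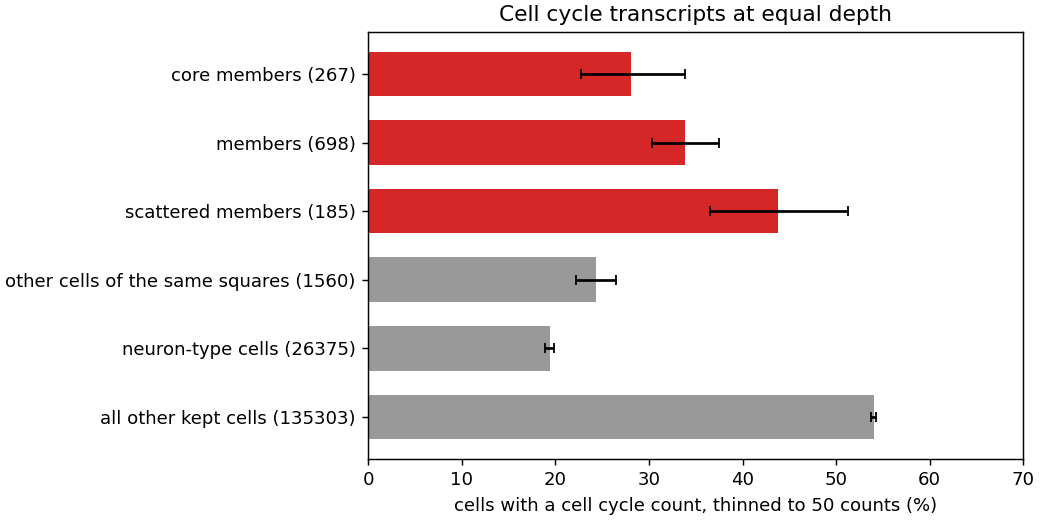
Percent of cells with at least 1 count over the 14 cell cycle genes after thinning each cell to 50 counts, with exact 95% intervals and the number of cells in brackets. Radial glia-type cells (red, 33.8%) lie above neuron-type cells (19.4%) and below all other kept cells (54.0%), and scattered cells (43.8%) lie above core cells (28.1%).

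Radial glia-type cells were not alike. Core cells were defined as the 289 with at least 10 radial glia-type cells among their 20 nearest, all in the larger group of squares, and scattered cells as the 216 with at most 2. Of 138 genes counted, 18 were higher (13%) and 46 lower (33.3%) in core cells, and by counts per cell volume the split was 31 and 32. Median depth was 148 counts in core and 94 in scattered cells. Mfsd2a stood at 440 per 10,000 in core and 86.3 in scattered cells, or 5.10-fold (4.39 to 5.95). Sfrp2 stood at 383 and 101, Pdpn at 157 and 47.9 and Vim at 860 and 407. Notch1 stood at 644 and 310, or 2.08-fold (1.91 to 2.27). Naaa, a lysosomal amidase, was 4.03-fold higher in core cells, P4ha3 3.80-fold, Pdlim3 3.66-fold and Fam167b 3.57-fold. Unc5b had the highest fold, 9.10 (5.72 to 15.3), but with at least 4 counts of Fabp7 and 2 of Slc1a3 required its direction turned, to 0.814 (0.532 to 1.25). Under that stricter rule Mfsd2a was 2.42-fold, Sfrp2 2.53-fold and Pdpn 1.80-fold higher in core cells, which had 4 genes higher and 11 lower.

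Some scattered cells carried transcripts of connective tissue. Of the 216, Dcn was found in 35 (16.2%) and Col1a2 in 33 (15.3%), against 32.4% for Col1a2 in all other kept cells. H19 was found in 68 (31.5%), against 74.7% of all other kept cells. It is not a marker of connective tissue here. H19 stood at 1478 per 10,000 in all other kept cells, 1147 in endothelial-gated cells and 1313 in the Dcn gate. H19 stood at 401 per 10,000 in scattered cells and 4.40 in core cells, or 91.1 times lower in core cells (55.8 to 160) on 16 counts there. Dcn and Col1a2, genes of fibroblasts, were at 3 and 4 counts in core cells against 122 and 147 in scattered cells. A blank code, a barcode given to no gene, averaged 6.68 counts in core cells and the highest held 35. The core values of Dcn and Col1a2 are thus at the level of blank codes, and that of H19 lies under the highest code. Stra6, the receptor of retinol-binding protein, was 13.8 times lower in core cells, and Htra1, Maf, Rgs5 and Sgk1 were between 7.37 and 8.49 times lower. The mesenchyme and meninges markers summed to 361 per 10,000 in scattered cells, 96.1 in core cells, 480 in all other kept cells and 1109 in the Dcn gate. The part of other cell types in the scattered group was not tested. Sparcl1 stood at 309 in scattered and 115 in core cells. Of 10 cell cycle genes counted, 9 were lower in core cells, beside 33.3% of all genes, and 28.1% (22.8% to 33.9%) of core against 43.8% (36.5% to 51.3%) of scattered cells had a thinned count of that list.

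Position within the band went with further differences. In 3 tiles of 1 mm with at least 100 radial glia-type cells, numbering 260, 242 and 109 and named tile 1, 2 and 3, Fabp7 stood at 1571, 1674 and 1280 per 10,000 and Slc1a3 at 298, 227 and 220. The rule used both genes, so these levels are a description only. Unc5b stood at 10.3, 155 and 40.9 in the same order, and Sfrp2 at 522, 52.0 and 271, so the tile highest in Unc5b was the lowest in Sfrp2. Gpc3, a heparan sulphate proteoglycan, was at 6, 81 and 0 counts. Rgs5, a pericyte gene, stood at 13.5, 3.97 and 55.9, Col1a2, a collagen gene, at 4.49, 2.78 and 29.96, and H19 at 11.5, 29.3 and 119. The last 3 were highest in tile 3, which held 15 core and 51 scattered cells, against 169 and 25 in tile 1 and 105 and 33 in tile 2.

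Within each tile, radial glia-type cells were set against neuron-type cells of that tile. Notch1 was 21.4, 7.31 and 12.5-fold higher in tiles 1, 2 and 3. Mfsd2a was 12.2, 12.1 and 5.89-fold higher, Pdpn 24.9, 7.71 and 12.4-fold and Vim 10.5, 4.77 and 6.01-fold. These genes were higher in all 3 tiles. Unc5b was 1.19-fold in tile 1, with an interval of 0.809 to 1.71 that includes 1, and 10.05 and 8.41-fold in tiles 2 and 3. Sparcl1 was 1.67, 1.29 and 6.66-fold higher.

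**Figure D4:**
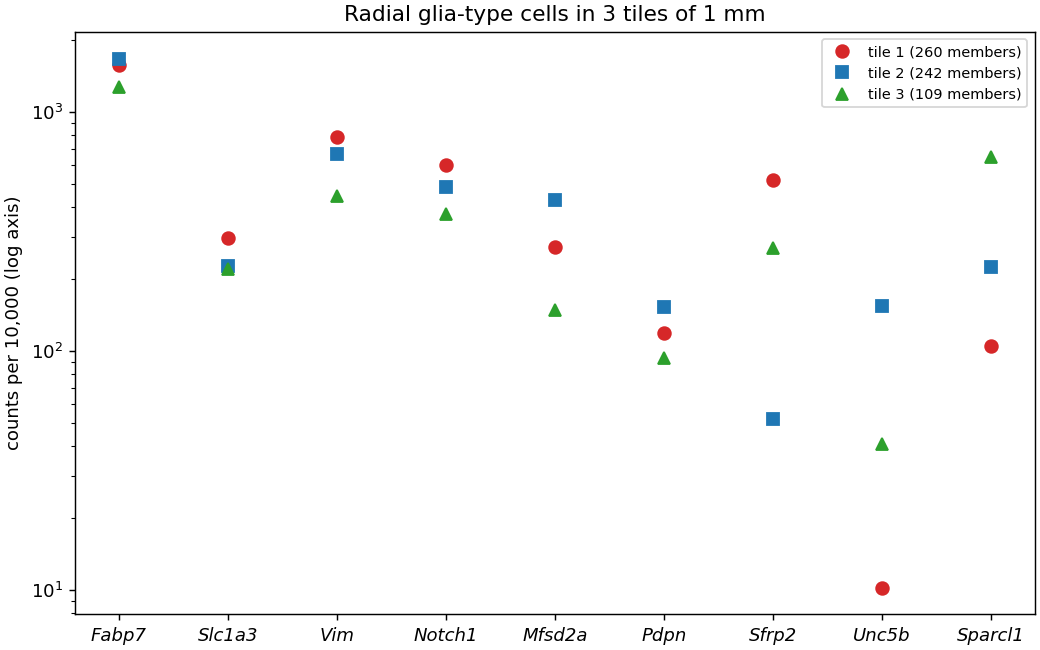
Level of 9 genes in radial glia-type cells of 3 tiles of 1 mm, as counts per 10,000 (log axis), 1 point per tile. Vim runs from 444 to 789 and Notch1 from 376 to 603, while Unc5b runs from 10.3 to 155 and Sfrp2 from 52.0 to 522.

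Cells near the core that did not meet the rule were followed with distance, in 6 bins of 117 to 4687 cells. Within 10 micrometres these cells, at a median of 73 counts, held Fabp7 at 1475 and Slc1a3 at 162 per 10,000. Core cells held more of both, at 1863 and 302, and radial glia-type cells as a whole held 1375 and 226. Fabp7 stood at 823 at 20 to 40 micrometres and 131 at 160 to 320, and Slc1a3 at 79.8 and 12.7. The part of cells just short of the rule in the levels below was not tested. Vim stood at 710 per 10,000 within 10 micrometres of a core cell, 307 at 20 to 40 micrometres and 61.0 at 160 to 320. Notch1 stood at 484, 194 and 26.5 and Mfsd2a at 263, 55.2 and 29.4 at the same distances. All 3 were lower in each further bin. Btg2 stood at 95.6 and 94.5 in both bins under 20 micrometres and at 8.58 at 160 to 320. Gadd45g differed from these: it stood at 7.82 within 10 micrometres, 22.5 at 20 to 40 and 4.52 at 160 to 320, on 9 counts in the nearest bin.

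Neuronal genes ran the other way from the nearest to the farthest bin, though not in every step. Stmn2, which the rule used, stood at 303, 704 and 1542 per 10,000 at 0 to 10, 20 to 40 and 160 to 320 micrometres. Scn3a stood at 15.7, 54.9 and 84.2 and Reln at 18.3, 32.0 and 88.1. Neuron-type cells made up 26.5%, 45.6% and 71.4% of the cells in these bins. Tubb2b and Meis2 stood at 453 and 356 in the nearest bin and at 785 and 854 in the farthest. At 10 to 20 micrometres Tubb2b and Reln were lower than in the nearest bin, at 391 and 17.8. Tubb2b was highest at 80 to 160 micrometres, at 790, and Meis2 fell there to 531 from 643 at 40 to 80. The nearest cells are neighbours in tissue where 73.8% of radial glia-type cells had another cell centre within 8 micrometres, and the part of counts assigned across cell borders was not tested. With such crowded cells left out, Mfsd2a was 19.3-fold, Notch1 7.77-fold and Sfrp2 4.05-fold higher than in all other kept cells. Sfrp2 was then 8.30-fold higher than in neuron-type cells, and 11.8-fold higher in core than in scattered cells.

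**Figure D5:**
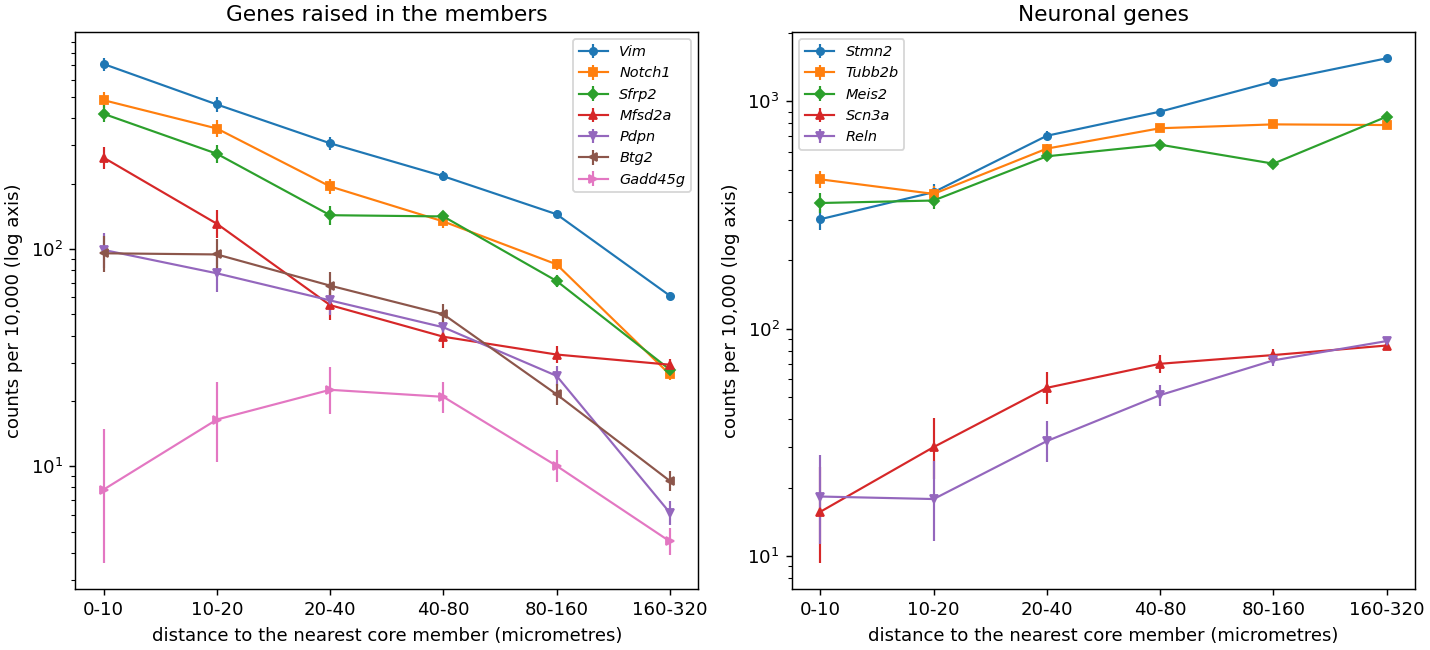
Level of genes in kept cells that did not meet the rule, by distance to the nearest core cell in micrometres, as counts per 10,000 (log axis) with 95% Poisson intervals. Vim, Notch1 and Mfsd2a are lower in each further bin, and Gadd45g is highest at 20 to 40 micrometres. Stmn2, Scn3a, Reln and Meis2 are highest at 160 to 320 and Tubb2b at 80 to 160. Fabp7, not drawn, stood at 1475 per 10,000 in the nearest bin.

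Radial glia-type cells were also divided by their counts of Btg2. In 186 cells with at least 2 counts of Btg2, Gadd45g stood at 37.4 per 10,000 and Notch1 at 617, against 12.4 and 410 in 435 cells with 0. Their median depths were 160.5 and 87, and the part of depth in these differences was not tested.

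The shape and stain of the cells were similar to their neighbours. Median volume was 617 cubic micrometres in radial glia-type cells and 605 in other cells of the same squares, against 715 in neuron-type cells. Median anisotropy, the elongation given in the deposited table, was 1.42, 1.40 and 1.36 in the same order. Median DAPI stain per volume was 821195, 785154 and 439267, and 528299 in all other kept cells. Median poly-T stain per volume was 1.07e+06, 1.06e+06 and 866830, and 972707 in all other kept cells. Both stains were thus near those of the same squares and above those of neuron-type cells. Blank codes, barcodes given to no gene, made up 0.289% of counts in radial glia-type cells and 0.302% in all others. A blank code averaged 16.0 counts over the 786 cells and the highest held 62, so values resting on fewer counts, such as those of Dkk2, Acta2, Myh11 and Cd36, are at the level of blank codes. Hand2, Casz1, Far2 and Cd248, among others, held 21 to 25 counts, above the mean code but under the highest.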

How the data were processed

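The deposited tables hold whole-number counts of 296 genes and 19 blank codes per segmented cell, and a further table deposited for every section gives the position, volume, shape and stain intensity of its cells. Scanpy and Seurat were used, per the submitters' processing notes, which give neither versions nor roles. How cells were segmented and barcodes decoded is not stated in the labels beyond the MERSCOPE platform itself. Positions carry no unit in the headers and were read as micrometres. Sequential probes, 4 of the 300 genes of the design per the labels, were not analysed here.

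Cells with at least 10 counts were kept. Counts were summed per group and divided by panel counts without 5 gate genes. A gene was counted with at least 50 counts over both groups and called at 2-fold. A gene at 0 counts in 1 group was set to 3 counts, with no fold where that alone turned the direction. Ratios carry exact Poisson and shares exact Clopper-Pearson 95% intervals. Thinning drew 50 counts per cell with 1 seed. No doublet caller was run, since cells were segmented from images. Work was done in Python 3.11.15 with numpy 2.4.6, pandas 2.3.3 and scipy 1.17.1, and the fold routine was tested on simulated data.

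The rule, the gene lists and the tests were chosen with earlier results of these data known. Named genes were the 15 highest and 10 lowest folds against all other cells, the 10 and 10 against neuron-type cells and against the same squares, the 8 and 8 of core against scattered cells, the 6 widest between tiles and any gene of the lists; some genes that meet this rule are not reported here. Gadd45g, the endothelial and Dcn gates, distance bins, the split by Btg2, comparisons within tiles, a minimum of 100 counts for ranking tiles, the motif, the printed promoters and the handling of counts of 0 to 3 were chosen after values had been seen. The alternatives covered the cell minimum, the limits of the rule, cell volume, crowding, scaling, blank subtraction, thinning, the count minimum, the fold limit and the size of squares.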

Additional observations from a re-analysis of the deposited data

How the results depend on the processing

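No paired analysis was possible because E15.5 has 1 section. Leaving out a replicate was not possible for the same reason. With at least 4 Fabp7 and 2 Slc1a3 counts, radial glia-type cells were 0.190% of kept cells, 27.0% had a cell cycle count, 87 genes were lower than in neuron-type cells, 63 lower than in the same squares, and core cells had 4 higher and 11 lower. With Stmn2 under 2 the share was 0.256%, 38.4% had a cell cycle count and 7 genes were higher than in the same squares. Without cells crowded within 8 micrometres these were 0.286%, 43.4% and 12, with 23 lower there and 19 lower in core cells. A cell minimum of 20 gave 0.436% and a rule on thinned counts 0.463%. Mean count per cell gave 50 higher and 17 lower than in the same squares, and counts per volume 49 and 17, with 31 higher in core cells. Subtracting blank codes gave 72 lower than in neuron-type cells. Thinned counts gave 13 lower in core cells, and no minimum 118. A fold limit of 1.5 gave 77 lower than in neuron-type cells, 48 higher and 75 lower than in the same squares and 29 higher in core cells. Squares of 50 micrometres gave 9 higher. Without thinning 52.9% had a cell cycle count, and 16.2% had at least 2.

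Alternatives chosen after seeing the data gave these values. Without cells holding an endothelial count, 68 genes were lower than in the same squares and 26 lower in core cells, and within the larger group of squares 19 were lower in core cells. Outside that group, 59 genes were lower than in all other cells and 35 higher than in the same squares. There, the fold of Unc5b against all other cells turned (0.844, interval 0.491 to 1.35). Against the same squares Unc5b (0.717, interval 0.194 to 1.85, with 3.15 over all) and Cxcr4 (0.701, interval 0.0843 to 2.57, with 2.60 over all) turned. Cd55 also turned against the same squares (1.47, with 0.225 over all, its interval 0.0364 to 8.56). Each of these intervals includes 1. Unc5b in core against scattered cells turned to 0.814 under the stricter rule. The causes were not tested. The 108 other values that answer a comparison stayed within 1.5 times for counts, or within the interval for shares. Among folds of single named genes past 2-fold, 33 of 1230 recomputed values were short of it: 14 of 62 outside the larger group of squares, 6 of 80 under the stricter rule, 5 of 80 in the larger group only, 4 of 81 with Stmn2 under 2, 2 of 81 without crowded cells, 1 of 81 after blank subtraction and 1 of 20 in squares of 50 micrometres. Outside the larger group they included Sfrp2 against all other cells (1.15) and, against other cells of both groups of squares pooled, Mfsd2a (1.25) and Pdpn (1.01).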
